A study of Mus musculus with 8 samples.

Results

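The sestrins and the Ddit4 family are stress-inducible inhibitors of mTORC1, the kinase complex that drives protein synthesis and cell growth. Their members were taken as the probe sets with a single gene symbol in the platform annotation, that symbol being Sesn1, Sesn2, Sesn3, Ddit4 or Ddit4l. This gave 12 probe sets of 5 genes, of 34958 probe sets with 1 symbol and 45101 in all. Sesn1 had 4 probe sets, Ddit4l had 3, Sesn2 and Sesn3 had 2 each and Ddit4 had 1.

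The 8 arrays held total RNA from mouse embryonic stem cells of strain 129X1 x 129S1, in 4 groups of 2. In the shTop1 coculture, cells carrying a hairpin against Top1 shared a dish with mock cells at 1:4 until day 4. In the shTop1 mix, the same kinds of cells had been kept in separate dishes for the same time, and their RNA was pooled at 1:4. The shp53 coculture and the shp53 mix were built in the same way with a hairpin against p53. Every sample was set up with mock cells as the larger part, and the Top1 or p53 cells had the hairpin in both conditions of their pair. The design asked what changes when cells live together, beyond what the knockdowns do on their own. The arrays of a group are called biological replicates, with no word on separate thaws or passages, so a p-value here reflects the spread among arrays, which may be partly technical. The share of knockdown cells left in each coculture was not measured, and a lower signal from fewer cells of a kind cannot be told apart from less RNA per cell.

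Amino acids reach mTORC1 through the Rag GTPases on the lysosome, which the GATOR complexes switch. Growth factors and stress reach it through the TSC complex, which turns off the GTPase Rheb. The sestrins bind the GATOR complex that otherwise activates the Rag arm, and Sesn2 is a leucine sensor there. Ddit4, also called REDD1, and its paralog Ddit4l, also called REDD2, restrain mTORC1 through the TSC complex. The genes differ in what induces them. Sesn1 and Sesn2 are known p53 targets, Sesn2 also answers to ATF4, and Sesn3 is a known FoxO target. Ddit4 is induced by hypoxia, by glucocorticoids and by DNA damage.

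Promoter windows of 250 bases before the gene start were read from RefSeq (build GRCm38.p6) for 5 of 5 genes. There were 6 windows, since Sesn1 has 2 annotated starts. The windows of Ddit4 and Ddit4l are printed because the signals of both genes separated the cocultures from the mixes, and that of Sesn2 because its brighter probe set lay on the other side. Each is written 5′ to 3′ on the gene's own strand, and capitals mark matches to 6 short motifs on either strand.

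Ddit4, chr10:59951771-59952020, minus strand: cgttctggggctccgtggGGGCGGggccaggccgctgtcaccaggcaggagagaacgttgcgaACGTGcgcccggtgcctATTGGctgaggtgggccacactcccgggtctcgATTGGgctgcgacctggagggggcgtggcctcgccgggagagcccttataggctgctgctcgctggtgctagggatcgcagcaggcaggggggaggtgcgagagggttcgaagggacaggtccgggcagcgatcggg

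Ddit4l, chr3:137623422-137623671, plus strand: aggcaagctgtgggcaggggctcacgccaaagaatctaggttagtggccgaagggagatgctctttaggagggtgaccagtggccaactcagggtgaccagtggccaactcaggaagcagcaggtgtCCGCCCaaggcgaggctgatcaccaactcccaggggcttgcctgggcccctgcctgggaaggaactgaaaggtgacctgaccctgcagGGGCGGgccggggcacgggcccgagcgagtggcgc

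Sesn2, chr4:132510457-132510706, minus strand: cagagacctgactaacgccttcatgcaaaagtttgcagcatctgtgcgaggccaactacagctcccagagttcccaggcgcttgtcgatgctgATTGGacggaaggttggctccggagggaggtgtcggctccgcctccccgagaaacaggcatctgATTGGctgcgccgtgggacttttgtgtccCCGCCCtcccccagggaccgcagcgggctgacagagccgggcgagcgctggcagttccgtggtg

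The motifs searched were the hypoxia response element core ACGTG, the amino acid response element core TGATGNAA, the FoxO element GTAAACA, the CCAAT box CCAAT, the GC box GGGCGG and the TATA box TATAAA, and none of their matches overlapped a match of another motif. The Ddit4 window held 1 ACGTG, 187 bases before the start, along with 2 CCAAT boxes and 1 GC box. ACGTG was found in 16.6% of all 32851 windows of this length, and among the member windows it was found in that of Ddit4. The Ddit4l window held 2 GC boxes, 123 and 35 bases before the start, and no match to the other motifs. The Sesn2 window held 2 CCAAT boxes and 1 GC box. CCAAT boxes were found in 33.8% and GC boxes in 32.7% of all windows. The first Sesn1 window held 1 CCAAT box and 4 GC boxes, as did the second, and the Sesn3 window held 4 CCAAT boxes and 1 GC box. TGATGNAA, GTAAACA and TATAAA, found in 3.45%, 3.17% and 12.4% of all windows, were in none of the 6. GC content was 59.6% to 71.2% over the 6 windows, against a median of 52.4% over all windows. A match is a description of the letters and says nothing about binding in these cells.

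Mean signal was 812 to 896 per array, and 21.1% to 25.6% of values lay under 16. The array of shTop1 coculture replicate 1 had the highest mean signal and stood apart on the second principal component (16.9% of the variance), at -32.6 against -3.63 to 15.5 for the other 7, so results are also given without it. On the first component (19.9%) the cocultures lay at -2.94 to 26.1 and the mixes at -21.1 to -5.14, with no overlap. On the brightest of its 3 probe sets, Top1 had a signal of 5247 ± 93.3 in shTop1 samples, against 5649 ± 183 in shp53 samples (SD, n = 4 each, exact permutation p = 0.0286, two-sided). Its other probe sets are not described. The level of p53 itself is not reported. The 12 stem cell markers, Pou5f1, Nanog and Sox2 among them, were all above the low-signal filter (a signal of 22.1, the 30th percentile of all probe sets, which all 12 member probe sets passed), with a summed signal of 127618 to 136674 in cocultures and 131893 to 134628 in mixes. The summed signal of 10 primitive endoderm markers was 56397 to 62987 in cocultures, against 52879 to 55693 in mixes, with no overlap. Trophectoderm markers summed to 7907 to 8594 in cocultures, against 6930 to 7776 in mixes, with Elf5 and Gata3 under the filter. Fibroblast markers, listed to look for feeder cells, summed to 13018 to 14286 in cocultures, against 12026 to 12691 in mixes. Of the 12, Col3a1, Dcn, Lum, S100a4 and Twist2 were under the filter. The sum thus rests mainly on the other 7, and whether feeder cells were present was not tested. Neural markers summed to 1287 to 1522 in cocultures, against 1326 to 1449 in mixes, with Neurog1 and Neurog2 under the filter. The endoderm, trophectoderm and fibroblast sums thus separated cocultures from mixes, as did Ddit4 and Ddit4l described next, and their part in the results was not tested. A sum weighs its brightest genes most, and Pdgfra is in both the endoderm and the fibroblast list. Above the filter, 1 of 10 endoderm, 0 of 7 trophectoderm and 1 of 7 fibroblast markers had an unadjusted limma p under 0.05 between coculture and mix. Of all genes 11.7% did. Log2 differences were above 0 for 10 of these endoderm, 6 of these trophectoderm and 7 of these fibroblast markers. Their medians were 0.13, 0.14 and 0.19. Over all genes 55.3% were above 0 and the median was 0.022.

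Ddit4, which releases the TSC complex from inhibition when cells are short of oxygen or energy, had higher signal in every coculture array than in any mix array. Its probe set, 1428306_at, read 11719 and 11741 in the shTop1 coculture, against 9427 and 8657 in the shTop1 mix. It read 12600 and 10470 in the shp53 coculture, against 10348 and 9650 in the shp53 mix. The ranges did not overlap, but the gap was narrow, between shp53 coculture replicate 2 and shp53 mix replicate 1. With the authors' scaling alone these same arrays changed places, at 10571 and 10639. Signal averaged 11633 ± 877 in cocultures and 9520 ± 697 in mixes (SD, n = 4 each). The two-sided exact permutation p was 0.0286, the smallest that 4 arrays against 4 allow, and 0.0571 with the authors' scaling.

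The fit over all 14266 genes tested (limma on log2 of signal plus 16) gave Ddit4 a log2 difference between coculture and mix of 0.29 ± 0.088 (SE), averaged over both knockdowns, a ratio of 1.22. Its 95% interval ran from 0.073 to 0.50, with a p of 0.0167 and a Benjamini-Hochberg adjusted p of 0.357 in limma. It was therefore not called. The log2 difference was 0.38 (limma adjusted p = 0.576) in the shTop1 pair and 0.20 (limma adjusted p = 0.782) in the shp53 pair. The difference between the 2 pairs was 0.18 ± 0.18 (SE, limma adjusted p = 1.00). The shp53 value was 0.067 without shp53 coculture replicate 1 and was 0.33 without shp53 coculture replicate 2, and the difference between the pairs was then 0.31 and 0.044. By group, Ddit4 was highest in the shTop1 coculture (11730 ± 15.4), then in the shp53 coculture (11535 ± 1506), the shp53 mix (9999 ± 494) and the shTop1 mix (9042 ± 545; SD, n = 2 each). The 2 cocultures did not differ beyond the spread of the shp53 coculture, and the spread of the shp53 coculture also reached close to the shp53 mix.

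**Figure D1:**
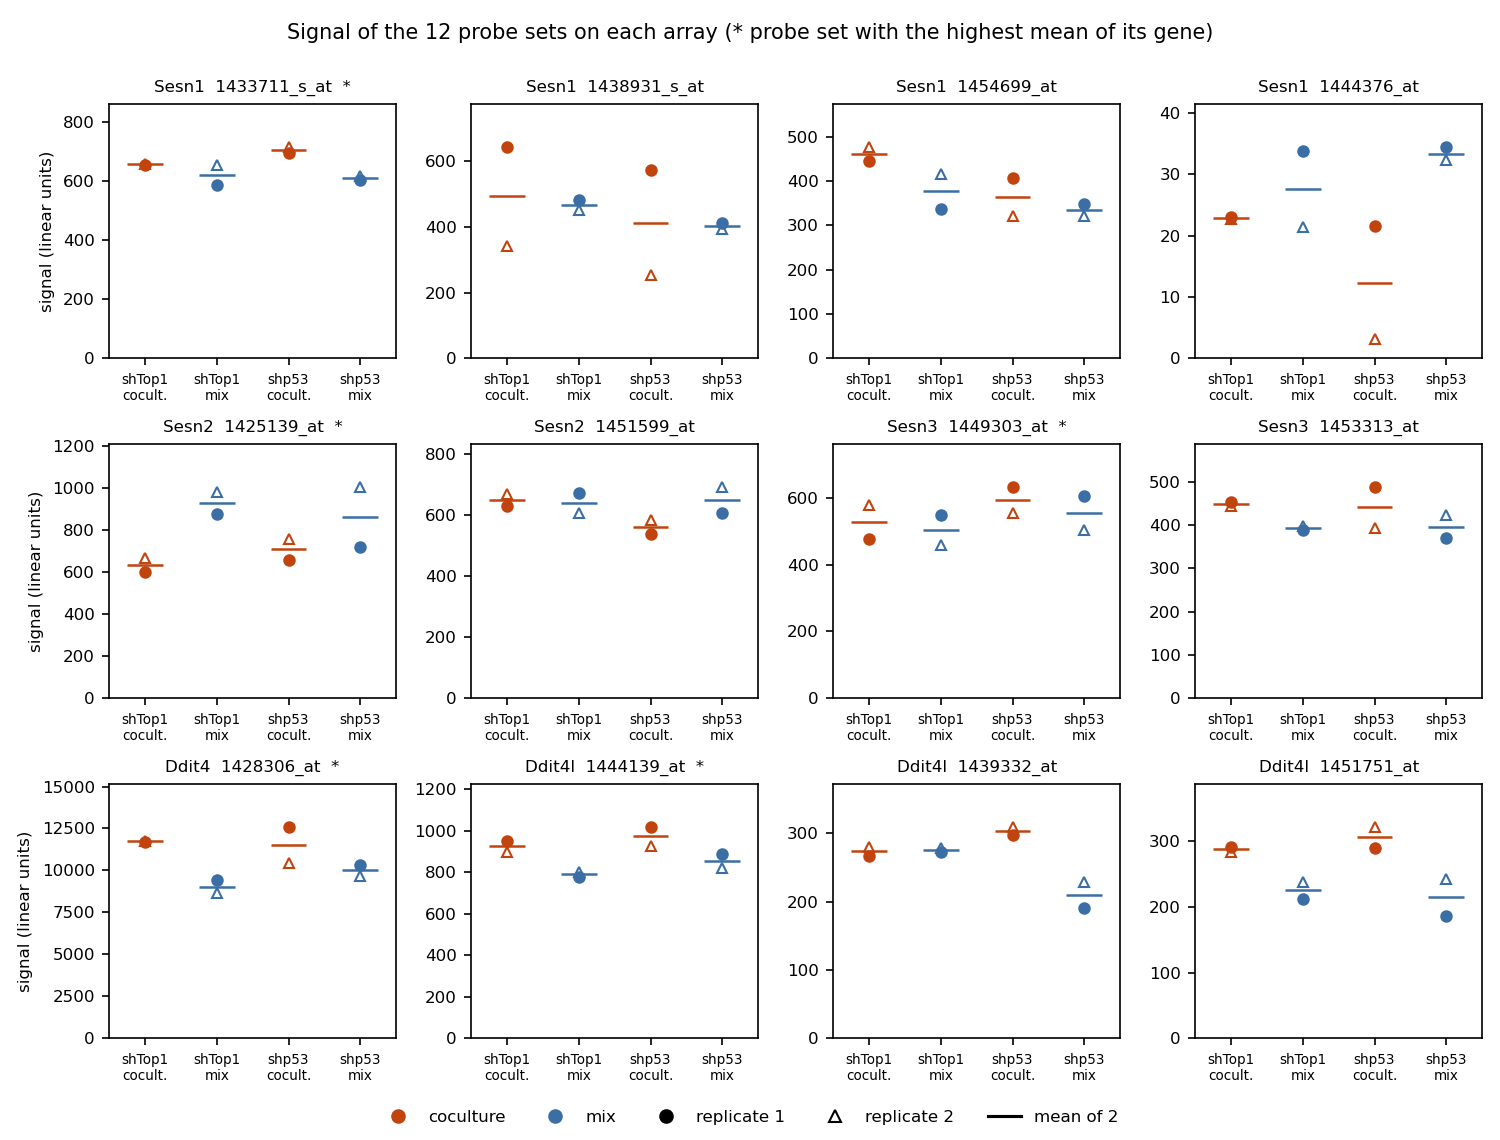
Signal (linear units, quantile normalized) of the 12 probe sets on each of the 8 arrays, with 1 panel per probe set and 1 column per group (orange, coculture; blue, mix; filled circle, replicate 1; open triangle, replicate 2; bar, mean of 2). An asterisk marks the probe set with the highest mean of its gene. In the panels of Ddit4 and of Ddit4l 1444139_at and 1451751_at every coculture point lies above every mix point.

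Ddit4l, the paralog of Ddit4, had higher signal in every coculture array than in any mix array on 2 of its 3 probe sets. The brightest, 1444139_at, read 954 and 900 in the shTop1 coculture, against 780 and 800 in the shTop1 mix. It read 1020 and 928 in the shp53 coculture, against 887 and 823 in the shp53 mix. All 4 coculture arrays stood above all 4 mix arrays, by 950.1 ± 51.3 against 823 ± 46.3 (SD, n = 4 each, two-sided exact permutation p = 0.0286). Here too the gap was narrow, between shTop1 coculture replicate 2 at 900 and shp53 mix replicate 1 at 887, arrays of different pairs.

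Probe set 1451751_at showed the same order. It read 291 and 284 in the shTop1 coculture, against 212 and 238 in the shTop1 mix. It read 289 and 321 in the shp53 coculture, against 187 and 242 in the shp53 mix. The groups did not overlap (296 ± 17.1 in cocultures and 219.9 ± 25.9 in mixes, SD, n = 4 each, two-sided exact permutation p = 0.0286). For both probe sets the exact p was also 0.0286 with the authors' scaling.

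The remaining probe set, 1439332_at, behaved differently in the 2 pairs. It read 267 and 279 in the shTop1 coculture, against 272 and 278 in the shTop1 mix, which overlap throughout. It read 297 and 309 in the shp53 coculture, against 191 and 229 in the shp53 mix, with a clear gap. With every probe set fitted by itself, its log2 difference between coculture and mix was -0.0086 (limma adjusted p = 0.990) in the shTop1 pair and 0.50 (limma adjusted p = 0.668) in the shp53 pair. The difference between the pairs was -0.51 ± 0.17 (SE), with a p of 0.0262 and a limma adjusted p of 1.00, so it did not pass. Over all 8 arrays its exact permutation p was 0.114.

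As a gene, Ddit4l had a log2 difference between coculture and mix of 0.20 ± 0.073 (SE, 95% interval 0.026 to 0.38), a ratio of 1.15, with a p of 0.0310 and a limma adjusted p of 0.382. It was 0.23 in the shTop1 pair and 0.18 in the shp53 pair, closer to each other than their standard error of 0.10, and the shp53 value was 0.12 without shp53 coculture replicate 1. The other probe sets had 0.25 (1439332_at) and 0.41 (1451751_at) over both pairs in the fit of every probe set. On 1444139_at the groups ranked shp53 coculture (974 ± 65.0), shTop1 coculture (927 ± 38.3), shp53 mix (855 ± 44.7) and shTop1 mix (790.1 ± 14.4; SD, n = 2 each). Each coculture stood above its own mix by more than either SD, while the 2 cocultures differed by less than the larger SD.

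Of the 12 probe sets, 3 had coculture arrays that did not overlap the mix arrays, all with coculture higher. Over all 26105 probe sets above the filter, 4.6% were separated in that direction and 8.06% in either direction. Counted by gene, Ddit4 and Ddit4l were 2 of 5, against 5.75% of all genes with coculture higher. With the authors' scaling the Ddit4 arrays overlapped, which left 2 of 12 probe sets and 1 of 5 genes. The shares above are for quantile normalized signal, and those of all probe sets and genes under the authors' scaling were not counted. These 3 probe sets come from 2 genes, so they are not independent.

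Sesn2, a leucine sensor, had lower signal in cocultures on its brighter probe set, 1425139_at. That probe set read 602 and 670 in the shTop1 coculture, against 875 and 984 in the shTop1 mix. It read 660 and 759 in the shp53 coculture, against 721 and 1008 in the shp53 mix. The shTop1 pair was clear of overlap, while in the shp53 pair mix replicate 1 lay between the coculture arrays. Signal averaged 673 ± 64.9 in cocultures and 897 ± 131 in mixes (SD, n = 4 each, exact permutation p = 0.0571, two-sided).

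The log2 difference of Sesn2 was -0.40 ± 0.13 (SE, 95% interval -0.72 to -0.084), with a p of 0.0210 and a limma adjusted p of 0.372, and so did not pass. It was -0.54 in the shTop1 pair (limma adjusted p = 0.577) and -0.26 in the shp53 pair (limma adjusted p = 0.799), and the difference between the pairs was -0.27 ± 0.26 (SE, limma adjusted p = 1.00). The shp53 value was -0.026 without shp53 mix replicate 2 and -0.50 without shp53 mix replicate 1, and the difference between the pairs was then -0.51 and -0.038. The groups ranked shTop1 mix (929.9 ± 77.0), shp53 mix (864 ± 203), shp53 coculture (709 ± 69.6) and shTop1 coculture (636 ± 48.0; SD, n = 2 each). The shp53 mix did not differ from either neighbour in that order beyond its own spread.

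The other Sesn2 probe set, 1451599_at, is listed with the same target accession and did not show this. It read 630.5 and 671 in the shTop1 coculture, against 674 and 608 in the shTop1 mix. It read 539 and 585 in the shp53 coculture, against 609 and 694 in the shp53 mix. The shTop1 arrays overlapped and the shp53 coculture arrays lay below those of their mix. Its log2 difference over both pairs was -0.091 ± 0.090 (SE, 95% interval -0.31 to 0.13, limma adjusted p = 0.724), with 0.022 in the shTop1 pair and -0.20 in the shp53 pair. The lower Sesn2 signal in the shTop1 coculture thus rests on 1 probe set of 2, and with the mean of both probe sets the gene's difference was -0.25 (limma adjusted p = 0.447, and 0.134 to 0.648 over all alternatives).

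**Figure D2:**
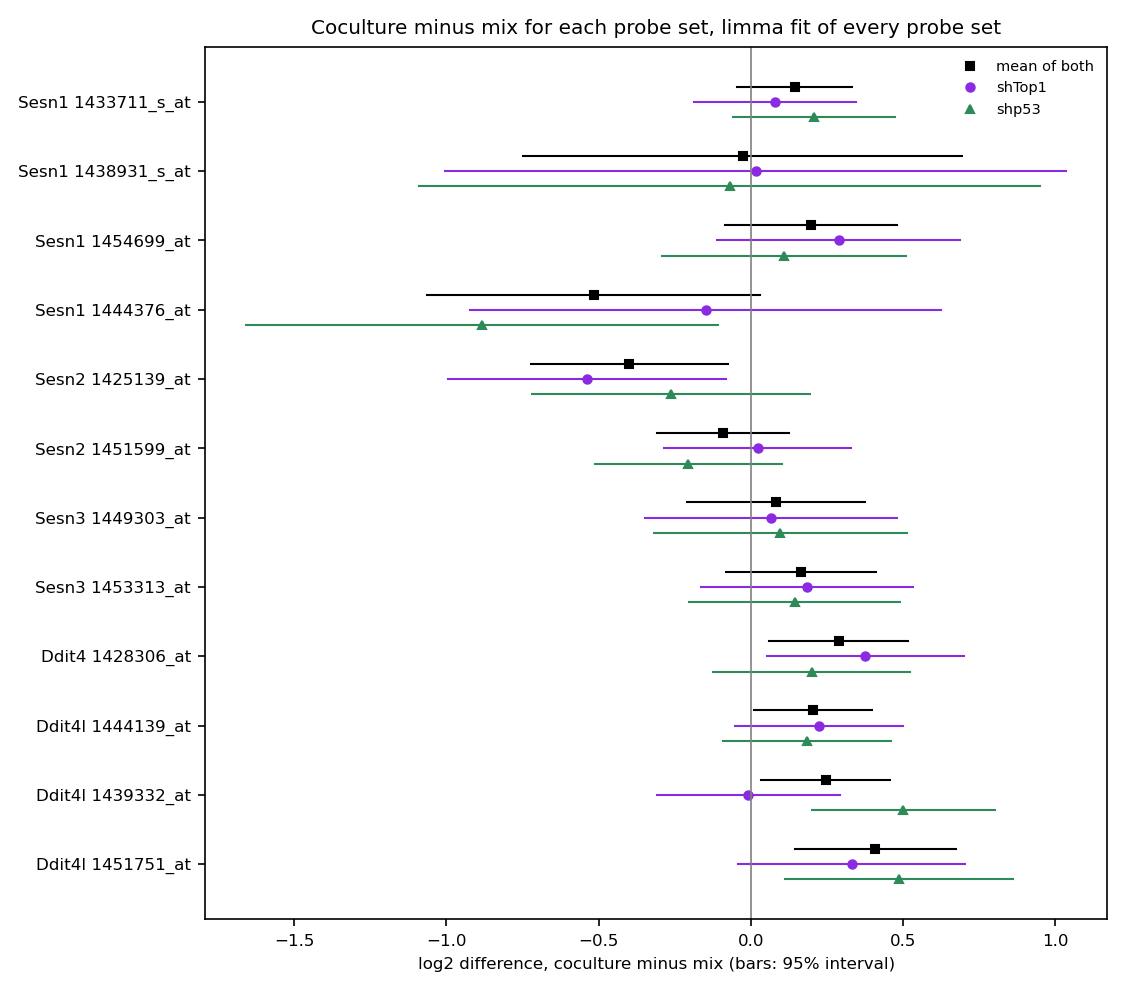
Log2 difference in signal between coculture and mix for each of the 12 probe sets (x axis), with 95% intervals from limma fitted to every probe set, for the mean of both knockdowns (black squares), the shTop1 pair (purple circles) and the shp53 pair (green triangles). For the mean, the intervals of Ddit4 and of the 3 Ddit4l probe sets lie above 0 and that of Sesn2 1425139_at lies below 0, before adjustment.

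Sesn1, a p53 target that binds the GATOR complex, had coculture signals higher on average than those of the mixes, with overlap, on its brightest probe set, 1433711_s_at. It read 657 and 659 in the shTop1 coculture, against 588 and 657 in the shTop1 mix. It read 698 and 718 in the shp53 coculture, against 604 and 617 in the shp53 mix. The shp53 arrays were apart, and in the shTop1 pair mix replicate 2 was level with the cocultures. The averages were 683 ± 29.9 in cocultures and 616 ± 29.5 in mixes (SD, n = 4 each, exact permutation p = 0.0571, two-sided). The log2 difference was 0.14 ± 0.070 (SE, 95% interval -0.027 to 0.32, limma adjusted p = 0.474), with 0.080 in the shTop1 pair and 0.21 in the shp53 pair. The shTop1 value was 0.0017 without shTop1 mix replicate 1 and 0.16 without shTop1 mix replicate 2. The groups ranked shp53 coculture (708 ± 14.3), shTop1 coculture (658 ± 1.35), shTop1 mix (622 ± 48.9) and shp53 mix (610.3 ± 8.89; SD, n = 2 each), and the spread of the shTop1 mix covered both of its neighbours.

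The other Sesn1 probe sets were not alike. Probe set 1438931_s_at read 645 and 343 in the shTop1 coculture, against 481 and 451 in the shTop1 mix. It read 572 and 255 in the shp53 coculture, against 412 and 393 in the shp53 mix. In both cocultures replicate 1 was above every mix array and replicate 2 was below every mix array, so that its coculture SD was 185, against 39.3 in mixes (n = 4 each), with an exact permutation p of 0.971. Probe set 1454699_at, listed with the same target accession as 1433711_s_at, read 445 and 477 in the shTop1 coculture, against 337 and 416 in the shTop1 mix. It read 406 and 322 in the shp53 coculture, against 348 and 321 in the shp53 mix, overlapping there (exact permutation p = 0.257 over all 8 arrays).

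The dimmest Sesn1 probe set, 1444376_at, lay around the filter signal of 22.1. It read 23.1 and 22.7 in the shTop1 coculture, against 33.7 and 21.3 in the shTop1 mix. It read 21.5 and 3.09 in the shp53 coculture, against 34.5 and 32.2 in the shp53 mix. The groups overlapped (exact permutation p = 0.114), and at this level the array separates poorly. Averaging all 4 probe sets turned the Sesn1 difference to -0.050 (limma adjusted p = 0.921, and 0.383 to 0.921 over all alternatives). Fitted one by one over both pairs, 1433711_s_at had 0.14, 1454699_at had 0.20, 1438931_s_at had -0.026 and the dim 1444376_at had -0.52.

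Sesn3, a FoxO target that restrains mTORC1 in other tissues, had coculture and mix signals that overlapped on its brighter probe set. Probe set 1449303_at read 476 and 578 in the shTop1 coculture, against 547 and 458 in the shTop1 mix. It read 633 and 554 in the shp53 coculture, against 605 and 503 in the shp53 mix. The groups overlapped in both pairs. Signal averaged 560.1 ± 64.8 in cocultures and 528 ± 62.8 in mixes (SD, n = 4 each, exact permutation p = 0.486, two-sided). The log2 difference was 0.082 ± 0.12 (SE, 95% interval -0.20 to 0.37, limma adjusted p = 0.808), and 0.014 to 0.15 with shTop1 coculture replicate 2 or 1 left out. The group means, 593 in the shp53 coculture, 554 in the shp53 mix, 527 in the shTop1 coculture and 502 in the shTop1 mix, differed between neighbours by less than their SDs of 55.9 to 71.9.

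The other Sesn3 probe set, 1453313_at, read 455 and 444 in the shTop1 coculture, against 388 and 399 in the shTop1 mix. It read 489 and 394 in the shp53 coculture, against 369 and 423 in the shp53 mix. The shTop1 pair did not overlap and the shp53 pair did (exact permutation p = 0.0857). Its log2 difference over both pairs was 0.16 ± 0.10 (SE, limma adjusted p = 0.588).

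Across the family, 0 of 5 genes were called in the mean coculture comparison by limma at an adjusted p of 0.05, and 0% of all genes were. The smallest adjusted p over all genes was 0.279. An unadjusted p under 0.05 was found for 3 of 5 (Ddit4 and Ddit4l higher, Sesn2 lower), against 11.7% of all genes (7.09% higher and 4.63% lower). The median log2 difference of the members was 0.14, with 4 of 5 above 0, against a median of 0.022 and 55.3% above 0 over all genes. In the shTop1 pair, 0 were called by limma (0% of all genes), and 2 of 5, Ddit4 and Sesn2, had an unadjusted p under 0.05, against 8.2% of all genes. In the shp53 pair, 0 were called (0% of all genes) and 0 of 5 had an unadjusted p under 0.05, against 6.86%. The difference between the pairs ran from -0.27 to 0.18 over the members, with 0 called (0% of all genes) and 0 at an unadjusted p under 0.05 (4.3%).

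Leaving out shTop1 coculture replicate 1, the array that stood apart, gave mean log2 differences of 0.28 for Ddit4, 0.18 for Ddit4l, -0.36 for Sesn2, 0.15 for Sesn1 and 0.15 for Sesn3. The count at an unadjusted p under 0.05 was then 1 of 5. Over the removal of each array in turn, Ddit4 ran from 0.22 to 0.35, Ddit4l from 0.17 to 0.24 and Sesn2 from -0.52 to -0.28. The share of all genes at that p was not counted with an array left out, so a change in the count may not be particular to the members. The count fell to 0 without shTop1 mix replicate 2 and to 1 without shp53 coculture replicate 1 or shp53 mix replicate 2. In the shTop1 pair it was 0 without shTop1 coculture replicate 1 or shTop1 mix replicate 2, and 1 without shTop1 coculture replicate 2.

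**Figure D3:**
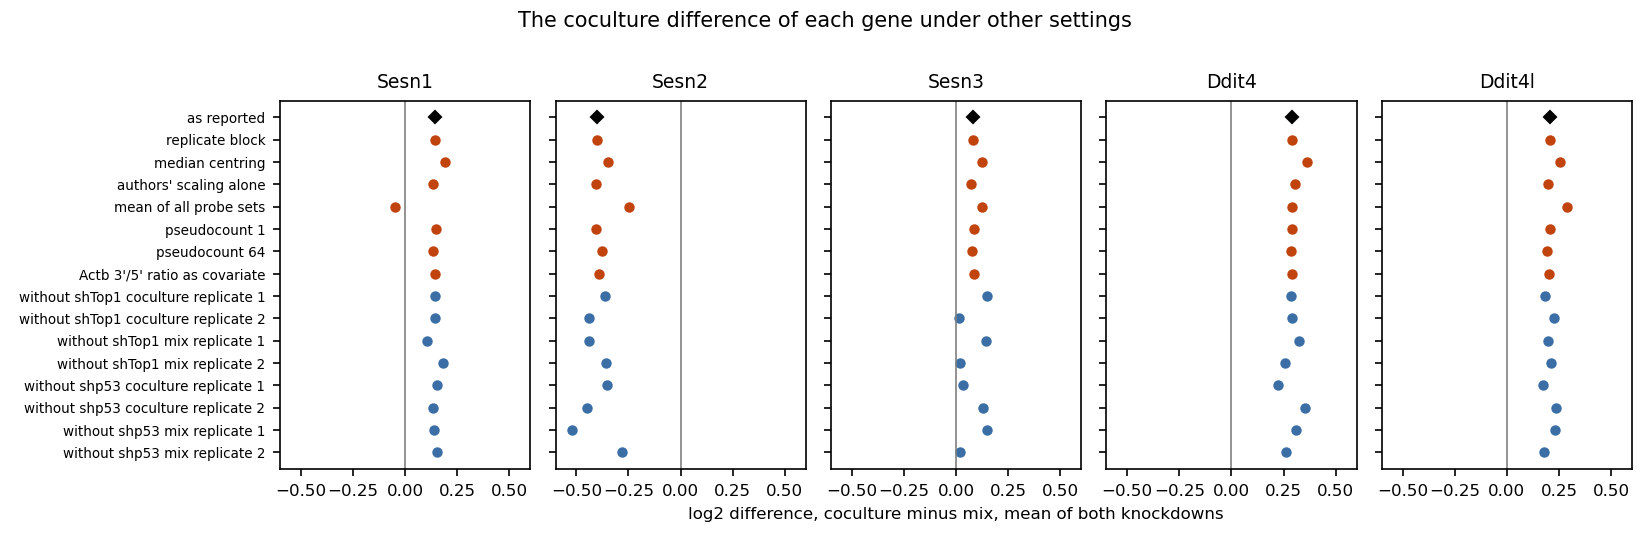
Log2 difference between coculture and mix (x axis, mean of both knockdowns) of each gene as reported (black diamond), under 7 other settings (orange) and with each of the 8 arrays left out (blue). Ddit4 and Ddit4l stay right of 0 and Sesn2 left of 0 in all the settings shown, while Sesn1 lies below 0 with the mean of its probe sets.

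Set against shp53 rather than between conditions, shTop1 samples had log2 differences of -0.15 to -0.016 over the 5 genes, averaged over both conditions. None was called by limma (0% of all genes), and 0 of 5 had an unadjusted p under 0.05, against 4.7% of all genes. Sesn3 had the lowest value, -0.15 ± 0.12 (SE, 95% interval -0.44 to 0.13). In cocultures alone the range was -0.17 to 0.030, and in mixes alone -0.15 to 0.12, again with 0 called by limma (0% of all genes) and 0 of 5 at an unadjusted p under 0.05, against 4.78% and 4.04% of all genes.

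The machinery that the family acts on was described by counts, with 11.7% of all genes at an unadjusted p under 0.05 for comparison. Of 25 tested genes of the Rag arm, GATOR and KICSTOR, 0 passed the limma test, and 2 were higher and 1 lower in coculture at an unadjusted p under 0.05, with a median log2 difference of 0.010. Lamtor2, a part of the lysosomal anchor of the Rag GTPases, had a log2 difference of 0.17 ± 0.065 (SE, limma adjusted p = 0.402), and Rragd, a Rag GTPase, had -0.29 ± 0.11 (SE, limma adjusted p = 0.407). Of 10 tested TSC, Rheb and mTORC1 genes, 0 passed and 0 had an unadjusted p under 0.05, with a median of 0.026. The mTORC1 inhibitor Deptor had 0.19 and the kinase Mtor itself 0.14 (limma adjusted p = 0.469 and 0.479). Of 9 AMPK genes, the energy-sensing kinase that sestrins are known to work with, 0 passed, with a median of 0.023. The catalytic subunit Prkaa1 had the lowest value among them, -0.43 ± 0.18 (SE, limma adjusted p = 0.426), and Cab39, a partner of the AMPK-activating kinase Stk11, had -0.15. Of 9 mTORC1 substrates and translation factors, 0 passed, with a median of -0.0031. The cap-binding factor Eif4e had 0.16 and Pdcd4, an inhibitor of translation that mTORC1 signalling removes, had 0.25. Averaging a gene's probe sets gave 0.26 for Lamtor2, 0.030 for Eif4e (limma adjusted p = 0.933), -0.079 for Mtor and 0.0099 for Cab39. Deptor had 0.12 without shp53 coculture replicate 1, Prkaa1 had -0.28 without shp53 coculture replicate 2 and Pdcd4 had 0.16 without shTop1 coculture replicate 1. These are RNA levels, and mTORC1 activity was not measured.

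The inducers that the members are known to answer to were described through their other targets, with the members left out of every list. Of 21 tested hypoxia response genes, 0 passed the limma test, 8 were higher and 0 lower at an unadjusted p under 0.05, and 17 were above 0, with a median log2 difference of 0.21. Over all genes 7.09% were higher and 4.63% lower at that p, 55.3% were above 0 and the median was 0.022. Bhlhe40, a transcriptional repressor, had a signal of 2366 ± 114 in cocultures and 1786 ± 77.3 in mixes (SD, n = 4 each), a log2 difference of 0.40 ± 0.072 (SE, limma adjusted p = 0.333). Ndrg1, a growth-arrest gene, had 1949 ± 244 in cocultures and 1360.0 ± 68.5 in mixes (SD, n = 4 each), a log2 difference of 0.51 ± 0.11 (SE, limma adjusted p = 0.333). With trended and robust variances these 2 passed, at limma adjusted p = 0.0430 for Bhlhe40 and 0.0497 for Ndrg1, while no member did. The share of all genes that passed in that setting was not counted. Over all alternatives the adjusted p ran to 0.597 for Bhlhe40 and 0.602 for Ndrg1.

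Of 22 tested p53 targets, 0 passed, 2 were higher and 0 lower at an unadjusted p under 0.05, against 7.09% and 4.63% of all genes. In this list 16 were above 0, against 55.3% of all genes, and the median was 0.085. The same shares of all genes stand beside the counts of the FoxO and ATF4 lists. The cell cycle inhibitor Cdkn1a had 0.44 ± 0.12 and the DNA repair gene Xpc 0.30 ± 0.088 (SE, limma adjusted p = 0.345 and 0.357). Of 16 FoxO factors and targets, 0 passed, 2 were higher and 0 lower at an unadjusted p under 0.05, 10 were above 0, and the median was 0.10. Pdk4, which holds back pyruvate oxidation, had 0.38 ± 0.095, and the insulin receptor Insr had 0.19 ± 0.070 (SE, limma adjusted p = 0.345 and 0.399). Of 23 ATF4 amino acid and ER stress genes, 0 passed, with 1 higher and 1 lower at an unadjusted p under 0.05. In this list 13 were above 0, with a median of 0.020. The cationic amino acid transporter Slc7a3 had -0.28 ± 0.086, and Pck2, a mitochondrial enzyme of gluconeogenesis, had 0.17 ± 0.064 (SE, limma adjusted p = 0.358 and 0.401). Averaging a gene's probe sets gave 0.29 for Insr and 0.35 for Pck2.

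Of 9 glucocorticoid response genes, 0 passed, with 2 higher and 1 lower at an unadjusted p under 0.05 (7.09% and 4.63% of all genes). In this list 5 were above 0, against 55.3% of all genes. The median was 0.064, and -0.057 without shTop1 mix replicate 1. The clock gene Per1 had 0.40 ± 0.11, and Klf9, a zinc finger factor, had -0.25 ± 0.068 (SE, limma adjusted p = 0.345 each). Of 10 redox partners of the sestrins, 0 passed, 2 were higher and 0 lower at an unadjusted p under 0.05, 5 were above 0, and the median was 0.0038. Txnip, an inhibitor of thioredoxin, had a signal of 6328 ± 991 in cocultures and 4299 ± 529 in mixes (SD, n = 4 each), a log2 difference of 0.55 ± 0.14 (SE, limma adjusted p = 0.345). Sqstm1, the autophagy receptor that sestrins are known to bind, had 0.28 ± 0.080 (SE, limma adjusted p = 0.356). Averaging a gene's probe sets gave 0.081 for Sqstm1 (limma adjusted p = 0.823) and -0.16 for Klf9.

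**Figure D4:**
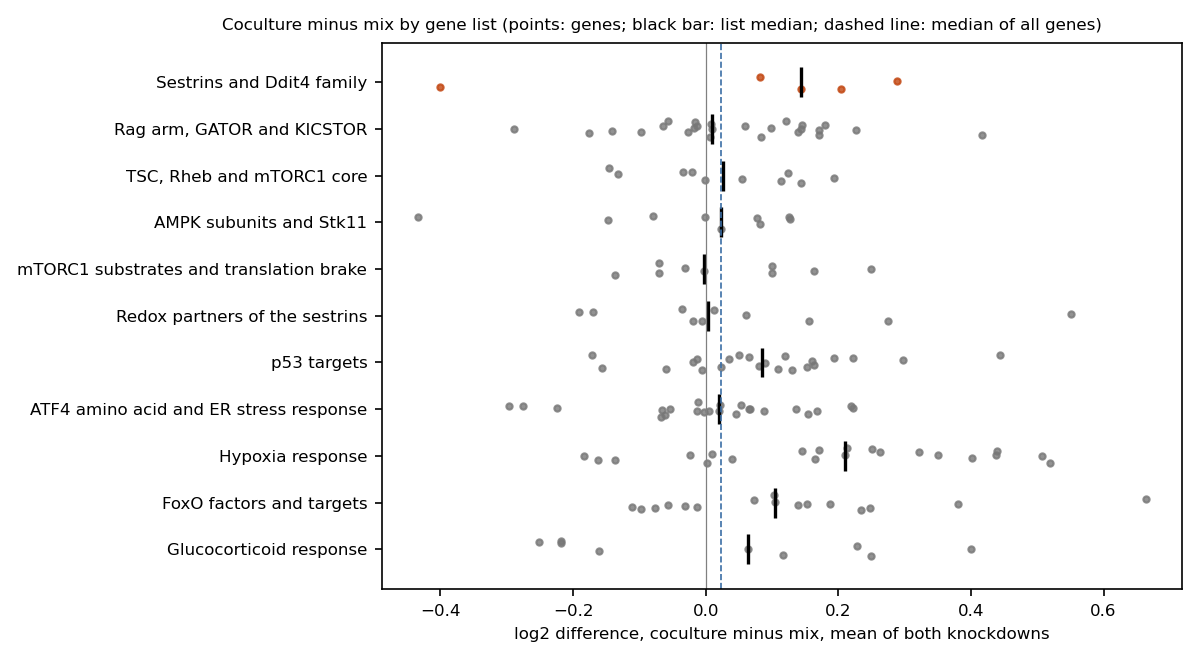
Log2 difference between coculture and mix (x axis, mean of both knockdowns) of each tested gene in the family (orange) and in 10 related gene lists (grey), with the median of each list (black bar) and of all genes (dashed line). The hypoxia list has its median at 0.21, and the 5 members spread from -0.40 to 0.29.

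The genes whose log2 signal ran most like each member over the 8 arrays were found by Pearson correlation with the other 14265 tested genes. For Ddit4 they were Stard10 (r = 0.980), Ier3 (0.979) and Ttyh2 (0.974), and 86 genes had r over 0.9. For Ddit4l they were Clic1 (0.984), Aldh1l1 (0.975) and Cd47 (0.964), with 56 genes over 0.9. For Sesn2 they were Purb (0.978), Tanc1 (0.970) and Srsf6 (0.959), with 31 over 0.9. For Sesn1 they were Meak7 (0.950), Dcaf12l1 (0.949) and Fam107b (0.941), with 22 over 0.9, and for Sesn3 Rgs12 (0.973), Tor1aip2 (0.963) and Arhgap22 (0.960), with 21. No member was among the 3 most like another. These values describe 8 arrays that share groups and scaling, and carry no test.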

How the data were processed

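Each array's deposited file column gives a linear intensity per probe set. A probe summary tool, not given in the sources used here, made them. The mean without the highest and lowest 2% was 500.003 to 500.004 on every array, from which the authors' scaling of the deposited intensities to 1 trimmed mean was read. Probe sets were named through the platform annotation, with symbols updated by gene identifier (34958 had 1 symbol, 932 several and 9211 were not listed).

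After quantile normalization the intensities were analysed as log2(value + 16), which understates fold changes of low genes. A gene was its probe set with the highest mean, kept where that reached the 30th percentile (signal 22.1), which left 14266 genes and 26105 probe sets. All 12 member probe sets passed. A limma model (version 3.58.1 in R 4.3.3, lmFit then eBayes with a constant prior) took the mean of each group over the 8 arrays, leaving 4 residual degrees of freedom, and was tested two-sided, with Benjamini-Hochberg adjustment over all genes and a threshold of 0.05. Single probe sets were also compared by an exact permutation test of 4 cocultures against 4 mixes (70 splits). The splits ignored the pairing by hairpin, so a p-value can be smaller than splits within each pair would allow. This test was run for 12 probe sets and its p-values are not adjusted. The fit was tested on simulated data. The number of arrays limits the precision.

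The members, pathway lists and markers were chosen with earlier results of these data known. All member probe sets are described, and per list the 2 genes with the smallest p and per member the 3 most correlated genes are named. Alternatives were a replicate block, median centring, the authors' scaling, no filter and a 50th percentile filter, the mean of probe sets, each probe set alone, pseudocounts of 1 and 64, only the groups compared, trended and robust variances, an Actb 3'/5' covariate and leaving out each array. The level of p53 itself was not analysed here.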

Additional observations from a re-analysis of the deposited data

Results flagged for a closer look

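Among 24 sets of 4 arrays (12 probe sets, cocultures and mixes apart), 2 had an array far from the other 3, both on the dim Sesn1 probe set 1444376_at. In cocultures shp53 coculture replicate 2 read 3.09, against 21.5 to 23.1 on the other 3, a gap of 0.944 of the whole range. In mixes shTop1 mix replicate 2 read 21.3, against 32.2 to 34.5 on the other 3, a gap of 0.849 of the range. Both exceed the 95% critical value of Dixon's test for 4 arrays, and chance gives such a gap in about 1 of 20 sets. These signals lie around the filter signal of 22.1.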

How the results depend on the processing

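Under the 20 alternatives, limma called 0 member genes in any comparison it was run for, and restricting the fit to the groups compared gives no value of its own where all 4 groups enter. The replicate numbers did not pair the samples (correlations of same-numbered deviations -0.00666 to 0.0506). With the replicate block, 3 of 5 members had an unadjusted p under 0.05 in the mean coculture comparison, the adjusted p was 0.376 for both Ddit4 and Sesn2, and no call changed.

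The count of members at an unadjusted p under 0.05 ran from 0 to 3 in the mean comparison, from 0 to 2 in the shTop1 pair and from 0 to 1 in the shp53 pair when each array was left out. It was 0 in the shTop1 pair without shTop1 coculture replicate 1 or shTop1 mix replicate 2, and 1 in the shp53 pair without shp53 mix replicate 1. In the shTop1 pair it was 1 with median centring, with the Actb covariate or with probe sets averaged per gene. In the shp53 pair it was 1 with probe sets averaged or with trended variances. The share of all genes at that p was not counted under any alternative. The cause was not tested for these shifts in the count or for the changes of sign that follow.

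With probe sets averaged per gene, the log2 difference between coculture and mix turned to -0.0497 for Sesn1, -0.0791 for Mtor and 0.00994 for Cab39, and to -0.158 for Sesn1 in the shp53 pair. The difference between the pairs turned to 0.217 (Sesn1), 0.00475 (Sesn3) and -0.208 (Ddit4l), and shTop1 against shp53 to 0.156 (Sesn1), 0.0376 (Sesn2) and 0.00642 (Ddit4l). The Sesn1 averages take in the dim 1444376_at, whose own coculture difference was -0.52 over both pairs and -0.88 in the shp53 pair. With median centring, shTop1 against shp53 turned to 0.0190 (Sesn1), 0.0485 (Sesn2) and 0.0325 (Ddit4), probe set 1438931_s_at to 0.0140 and 1439332_at in the shTop1 pair to 0.0122. With the Actb covariate, the difference between the pairs turned to 0.0550 (Sesn3) and -0.0507 (1438931_s_at), and the shTop1 pair to -0.0618 (1438931_s_at) and 0.0295 (1439332_at). With the authors' scaling, 1438931_s_at in the shTop1 pair turned to -0.0151.

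Leaving out each array gave both signs for 17 differences of single genes or probe sets. In the shTop1 pair these were Sesn3 (-0.0687 to 0.201), 1438931_s_at (-0.424 to 0.454), 1451599_at (-0.0497 to 0.0951) and 1439332_at (-0.0388 to 0.0217). In the shp53 pair they were Sesn3 (-0.0316 to 0.228), 1438931_s_at (-0.627 to 0.491), 1454699_at (-0.0513 to 0.272) and 1453313_at (-0.00730 to 0.296). For the difference between the pairs they were Sesn3 (-0.166 to 0.104), Ddit4l (-0.0265 to 0.109), 1438931_s_at (-0.476 to 0.642), 1453313_at (-0.111 to 0.194) and 1451751_at (-0.331 to 0.0201). For shTop1 against shp53 they were Sesn1 (-0.0780 to 0.000435), Sesn2 (-0.135 to 0.103) and Ddit4 (-0.123 to 0.00898), and over both pairs 1438931_s_at (-0.306 to 0.253). Some list medians over both pairs also took both signs. These were the Rag arm (-0.024 to 0.056), TSC (-0.021 to 0.060) and AMPK (-0.035 to 0.081) lists. The mTORC1 substrates (-0.048 to 0.086), ATF4 (-0.0054 to 0.034) and glucocorticoid (-0.057 to 0.13) lists did so too. The hypoxia, p53, FoxO and redox medians stayed above 0.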
